A study of Bos taurus with 90 samples.

Results

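The bovine gene with the Ensembl identifier ENSBTAG00000040202 was followed through single oocytes, cumulus cells (CCs) and mural granulosa cells (MGCs) of the same antral follicles. It is 1 of 27270 genes in the deposited table. It was chosen because its level was high in oocytes of small follicles and lower in later ones, so the fall after the small stage is what selected it and is described here without a test. The table lists genes by identifier alone, and no symbol, position or function could be matched to this identifier. The gene is therefore described only by where and when its transcript was counted.

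RNA-seq covered 30 follicles dissected from slaughterhouse ovaries of Bos taurus cows, and each follicle gave 1 sample of MGCs, 1 pool of CCs and 1 oocyte, 90 libraries in all. Follicles fell into 10 small (3.1 to 3.8 mm), 10 medium (6.2 to 7.1 mm) and 10 large (9.6 to 11.6 mm) ones, named S, M and L with a number. No group received a treatment. The paper states that follicles were collected in several batches and that each size class came from several cows. The breed and age of the cows, and the cow and batch behind each follicle, are not given in the sources used here. The p-values thus measure the spread between follicles, some of which may share a cow or a batch. The study removed 3 follicles, which left 27 (9 small, 8 medium and 10 large), and it classed 10 of these as healthy from the expression of marker genes in their MGCs (3 small, 3 medium and 4 large). The CC pool of S7 was also left out, because it held counts for only 1066 genes, so 26 CC pools remained. Oocytes and CCs were amplified from poly(A) tails by SMART-seq2, whereas MGCs had standard bulk libraries.

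During antral growth the oocyte is surrounded by CCs, which reach it through thin projections and gap junctions, while MGCs line the wall of the follicle and have no direct contact with it. The growing oocyte stores large amounts of mRNA that it later uses during maturation and the first embryonic cleavages. Transcription in the oocyte is largely shut down towards the end of its growth, after which the stored mRNAs are translated or degraded on different schedules.

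Library totals ranged from 8442938 to 53173320 counts in oocytes, from 8760201 to 40180192 in CCs and from 26739954 to 39266980 in MGCs. Oocyte libraries had counts for 10588 to 16641 genes. Levels are given as CPM, the count scaled to a common library total, which measures the share of a library taken by the gene. In the pooled CCs and MGCs, fewer cells that express a gene and less RNA of it per cell cannot be told apart.

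The gene was counted in all 27 oocytes, between 1570 and 74630 times, and its level spanned 24.6-fold from the lowest to the highest oocyte. In small follicles the oocyte level was 945 ± 863 CPM (SD, n = 9), with a median of 436 CPM. In medium follicles it was 319 ± 275 CPM (SD, n = 8), with a median of 184 CPM. In large follicles it was 163 ± 73.9 CPM (SD, n = 10), with a median of 141 CPM. The order of the stage means was thus small, medium, large, and the SD was close to the mean in small and medium follicles.

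Among small follicles, the lowest oocytes were S7 at 160 CPM and S8 at 251 CPM. The oocytes of S9, S1, S2 and S3 followed at 393, 394, 436 and 727 CPM. The highest were S4 at 1637 CPM, S6 at 2086 CPM and S5 at 2418 CPM. No other oocyte, at any stage, came above 911 CPM, so these 3 oocytes stood apart from the other 24.

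Medium follicles held a narrow group and 2 higher oocytes. The oocytes of M8, M2, M5, M6, M4 and M7 lay between 159 and 196 CPM. Those of M3 and M1 were at 566 and 911 CPM, within the range of the small follicles. In large follicles, 9 of 10 oocytes lay between 98.4 and 202 CPM, from L7 to L8, and the remaining one, L3, was at 352 CPM.

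**Figure D1:**
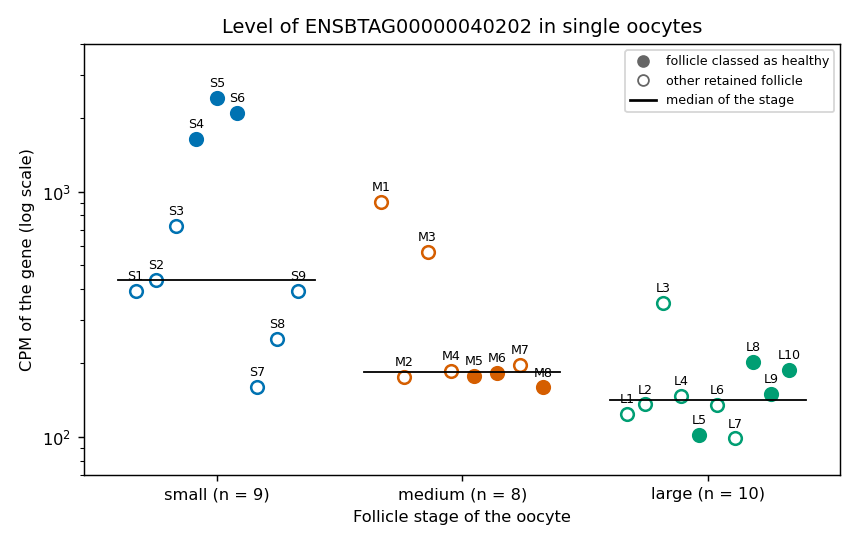
CPM of the gene in each of 27 oocytes (log scale), by stage and, within a stage, from the smallest to the largest follicle; filled points are follicles classed as healthy, open points are the other retained follicles, and lines are stage medians. S4, S5 and S6 lie between 1637 and 2418 CPM, above all other oocytes, and the medians fall from 436 to 184 and 141 CPM.

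The stages overlapped. Of the 9 small oocytes, 3 lay above every medium oocyte and 7 above every large one. S7, the lowest small oocyte, lay within the range of both later stages. Of the 8 medium oocytes, 2 (M1 and M3) lay above every large one.

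Fitted with edgeR over the 3 stages, the log2 fold change was -1.64 ± 0.46 (SE) from small to medium and -2.57 ± 0.44 from small to large. In these comparisons 0.0736% and 1.51% of the 14936 genes tested passed an adjusted p under 0.05 with a fold change above 2 (0.0268% and 0.582% as lower in the later stage), and the gene itself is given without a p because it was chosen on these contrasts. The ratio of the small to the medium level was 2.96 by means and 2.37 by medians. Against large follicles the ratios were 5.79 and 3.09.

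The step from medium to large follicles was not itself the ground of the choice and was tested. Its oocytes were among those on which the gene was chosen, so these p-values are not independent of that choice. The log2 fold change was -0.94 ± 0.44 (SE), with an unadjusted p of 0.0390 and an adjusted p of 0.910 by edgeR's quasi-likelihood test. An exact permutation test on log2(CPM + 1), two-sided, gave a difference of -0.73 with p = 0.0606. The unadjusted edgeR p was lower in some other fits and higher in others. It was 0.0109 outside the healthy set and 0.0104 without the 3 small follicles S4, S5 and S6. With the libraries of these stages alone it was 0.00969, and the adjusted p was 0.423 or above in each of these fits. The unadjusted edgeR p rose to 0.729 in the healthy follicles alone, where the log2 fold change was -0.084. It was 0.218 with all 30 follicles and 0.239 without M1. DESeq2 gave an unadjusted p of 0.0663. The large level was thus lower than the medium one in the fit of all retained oocytes, by a difference that did not pass the adjustment over all genes. No gene was called in that comparison by edgeR or by DESeq2, 0% of 14936. Of the 14936 genes, an unadjusted p under 0.05 with a fold change above 2 was found for 367 in edgeR and 79 in DESeq2. ENSBTAG00000040202 was in neither count, since its fold change was under 2 in both (log2 of -0.94 in edgeR and -0.93 in DESeq2).

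The high level of small follicles rested on the follicles classed as healthy, which are S4, S5 and S6. In healthy follicles the oocyte level was 2047 ± 392 CPM (SD, n = 3) at the small stage, 173 ± 12.0 CPM (n = 3) at the medium stage and 160 ± 44.7 CPM (n = 4) at the large stage. The healthy medium oocytes (M8, M5 and M6) were at 159, 177 and 182 CPM. The healthy large ones (L5, L9, L10 and L8) were at 102, 149, 187 and 202 CPM. Thus the healthy small oocytes lay 11.9-fold above the healthy medium oocytes by means, a direction that the choice of the gene favours. The levels of healthy medium and large oocytes overlapped.

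Outside the healthy set the pattern was different in shape. Small oocytes were at 393 ± 194 CPM (SD, n = 6), medium ones at 407 ± 326 CPM (n = 5) and large ones at 165 ± 92.8 CPM (n = 6). The log2 fold change from small to medium was -0.12 ± 0.46 (SE) and that from small to large was -1.40 ± 0.44. Here the small and medium means were alike, although the small median was 2.003-fold the medium median, since M1 and M3 raised the medium mean. From medium to large the fold change was -1.28 ± 0.46, with an adjusted p of 1 in edgeR. In that fit 0 genes were called, and 225 had an unadjusted p under 0.05 with a fold change above 2. Whether the stage differences depend on the health class was not tested.

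The healthy small follicles had one further feature in common. The first 3 digits of the follicle identifier, here called the prefix, were 620 for S4, S5 and S6 and for no other follicle. The sources used here do not say what the prefix stands for. Among the 3 oocytes of prefix 620 the level varied only from 1637 to 2418 CPM. Prefix 620, the health class and the small stage cannot be told apart for these 3 oocytes.

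Of 11 prefixes, 6 occurred at more than 1 stage, which allowed comparisons within a prefix without a test. In prefix 505 the small oocytes S8, S1 and S3 were at 251, 394 and 727 CPM and the large oocyte L6 was at 135 CPM. In prefix 705, the only one with all 3 stages, S2 was at 436 CPM, M3 at 566 CPM, and L2 and L10 at 135 and 187 CPM. In prefix 707, S7 was at 160 CPM and L5 at 102 CPM. Each of these 3 prefixes had a higher small than large level, by 3.40-, 2.71- and 1.57-fold.

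The small and medium stages met in only 2 prefixes. In prefix 717 the small oocyte was 2.11-fold above the medium one (393 against 186 CPM), whereas in prefix 705 the small oocyte was at 0.771 of the medium one. Medium and large oocytes met in 3 prefixes, with the medium level higher in 705 and 718 (3.51- and 1.44-fold) and lower in 721 (0.636 of the large mean). With the prefix as a covariate over the 27 oocytes, the log2 fold changes were -0.76 ± 0.41 (SE) from small to medium, -1.37 ± 0.38 from small to large and -0.61 ± 0.34 from medium to large. The last of these had an unadjusted p of 0.0926 and an adjusted p of 1 in edgeR.

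**Figure D2:**
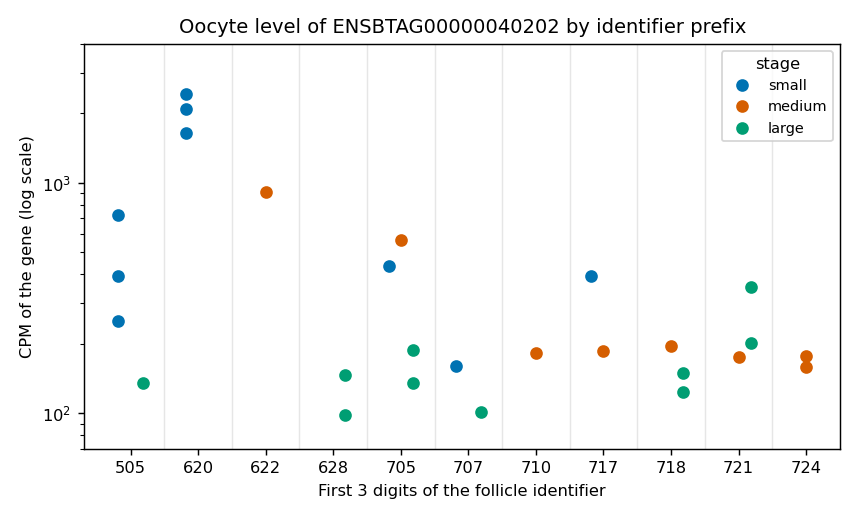
CPM of the gene in the 27 oocytes (log scale) by the first 3 digits of the follicle identifier, with the stage given by the colour. Prefix 620 holds small follicles alone and the highest oocytes (1637 to 2418 CPM), and small oocytes lie above large ones in prefixes 505, 705 and 707.

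Without the 3 oocytes of prefix 620, a choice made after their values were seen, the log2 fold change from small to medium was -0.45 ± 0.39 (SE) and that from small to large was -1.39 ± 0.37. These sets are drawn from the oocytes on which the gene was chosen, so a lower level after the small stage in them is no independent evidence of the fall, and they describe only how its size varied between sets.

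**Figure D3:**
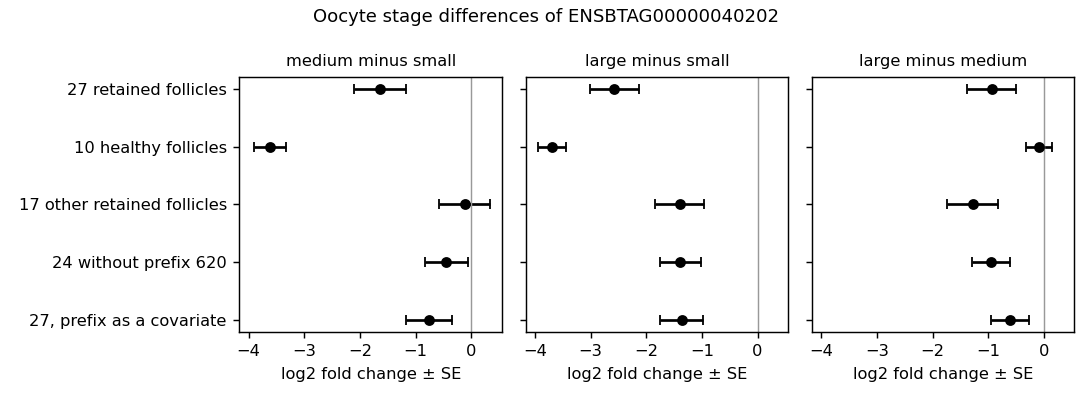
Log2 fold change of the gene in oocytes between stages (later minus earlier, points) with its SE (bars) from edgeR, for 5 sets of follicles or fits. From small to medium the estimates run from -3.61 in the 10 healthy follicles to -0.12 in the 17 other retained follicles, while all 5 estimates from small to large are at -1.37 or lower.

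Within a stage, the level also varied more than that of most genes. The pooled within-stage SD of log2(CPM + 1) was 1.01, against a median of 0.54 over 8463 genes with a mean oocyte CPM of at least 10, and 87.5% of these genes had a lower SD. Without prefix 620 the SD was 0.74 and 71.9% of the genes had a lower one. Over the same genes, 7 (ENSBTAG00000040202 included) were higher in each oocyte of prefix 620 than in all other 24 oocytes, and 7 were lower.

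Follicle diameter showed no relation to the oocyte level within a stage that passed the adjustment. Across small, medium and large stages, Pearson's r was -0.025, -0.56 and 0.0013, and Spearman's rho was -0.32, -0.32 and 0.26. Raw p-values (permutation, exact for small and medium follicles) were 0.940, 0.146 and 0.995 for r and 0.399, 0.435 and 0.461 for rho. Adjusted over the 12 p-values of 6 relations, they were 0.995, 0.609 and 0.995 for r, and 0.790 for each rho. Without the 2 follicles farthest from the median diameter, r was -0.39, -0.53 and -0.22. These diameter relations were added after the data had been seen.

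In MGCs the gene was all but absent from the counts. It had 2 counts in the MGCs of S8 (0.0646 CPM) and 0 counts in the other 26 samples. A count of 0 allowed a level of up to 0.0764 to 0.112 CPM in those samples, taking 3 counts as the limit. The oocyte level was at least 1047-fold above that limit in each of these 26 follicles, with a median of at least 2228-fold. These limits cover counting error only, and the oocyte and MGC libraries were prepared by different protocols, so the cell type and the protocol cannot be told apart.

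Between small and medium MGCs the fitted log2 fold change was -1.47 (adjusted p = 0.481 by edgeR), which rests on the 2 counts of S8. All medium MGCs were at 0, so its size is set by the fit, and DESeq2 gave -0.71 ± 3.78 (SE). The gene entered these fits only through its oocyte level, with no MGC library above 1 CPM, and filterByExpr dropped it. Nothing about MGC stages can be drawn from this p-value. The edgeR comparison called 0.423% of 14910 genes. No value could be given from medium to large MGCs, since both groups were at 0 throughout. In the MGCs of the healthy follicles no count was found in 10 samples.

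In CCs the gene was counted in 12 of 26 pools, with 2 to 32 counts. In small follicles the level was 0.924 CPM in S2, 0.384 CPM in S4, 0.228 CPM in S5 and 0.0634 CPM in S1, and it was at 0 in the other 4 pools. In medium follicles M8, M5, M1, M6 and M3 had 0.304, 0.170, 0.165, 0.108 and 0.0567 CPM, and the other 3 pools were at 0. In large follicles only L7, L1 and L9 had counts, at 0.231, 0.117 and 0.0653 CPM, and the other 7 pools were at 0. The gene thus lay below 1 CPM in every CC pool.

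Of the 15 CC libraries with a count, those of the removed follicles included, 13 had an even number, compared with 17 of 30 oocyte libraries. If both reads of a fragment were counted, 2 counts are 1 fragment, and counting intervals that treat them as independent are then too narrow. Whether they were is not given in the sources used here.

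**Figure D4:**
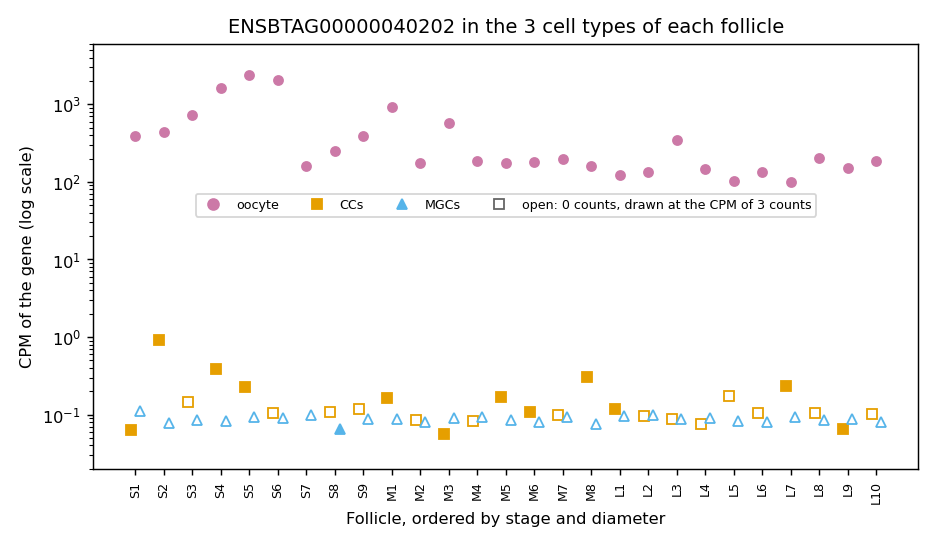
CPM of the gene (log scale) in the oocyte (circles), CCs (squares) and MGCs (triangles) of each retained follicle; open symbols are libraries with 0 counts, drawn at the CPM that 3 counts would give. Oocytes lie at 98.4 CPM or above, and all CC and MGC libraries lie below 1 CPM.

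Relative to the oocyte of the same follicle, the CC level where counted was between 0.00944% (S5) and 0.235% (L7), with a median of 0.0515%. In the 14 follicles with CCs at 0, the oocyte lay at least 593-fold above the limit of 3 counts. The CC pool of S5, beside the highest oocyte, had 2 counts, and that of S6, beside the next highest, had none. The highest CC level, in S2, came from a follicle whose oocyte was at the small-stage median of 436 CPM.

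The level in CCs did not follow that of the oocyte across follicles of a stage beyond what permutation allowed. For small (n = 8), medium (n = 8) and large follicles (n = 10), Pearson's r between both levels was 0.068, 0.059 and -0.48, and Spearman's rho was 0.32, -0.27 and -0.50. Raw p-values (permutation, exact for the small and medium stages) were 0.869, 0.809 and 0.0840 for r and 0.444, 0.528 and 0.152 for rho. Adjusted p-values were 0.995, 0.995 and 0.609 for r and 0.790, 0.792 and 0.609 for rho. Without the 2 follicles farthest from the median CC level, r was 0.54, 0.33 and -0.11, so the value of each stage depended on those follicles.

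When counts were pooled, CC levels had the same order of stages as oocyte levels, on few counts. Pooled over libraries, small, medium and large CCs had 46, 21 and 8 counts, or 0.226, 0.0866 and 0.0291 CPM. The edgeR log2 fold change was -0.93 ± 1.25 (SE) from small to medium (adjusted p = 0.844) and -1.30 ± 1.204 from medium to large (adjusted p = 0.835). The gene was in these fits because of its oocyte level, since no CC library reached 1 CPM, and edgeR's filterByExpr dropped it in CCs, so with so few counts these p-values say little about the CC stages. In both comparisons edgeR called 0% of 15109 genes, while DESeq2 called 38 and 18. In edgeR, 1378 and 682 genes had an unadjusted p under 0.05 with a fold change above 2. The first step turned on 1 library: without S2 the pooled small level was 0.0831 CPM and the log2 fold change was 0.031 (adjusted p = 0.999).

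Counts of the gene were more frequent in CCs than in MGCs of the same follicles. It had counts in CCs alone in 12 of 26 follicles, in MGCs alone in 1 and in neither in 13. Pooled counts were 75 in CCs and 2 in MGCs, a ratio of 46.3 with a 95% exact counting interval of 12.4 to 390. The edgeR log2 fold change was 4.24 ± 0.64 (SE; adjusted p = 6.27e-08). This fit did not pair the CCs and MGCs of a follicle, and it called 50.5% of 15120 genes, with 23.8% called as higher in CCs. With the follicle as a replicate block, the log2 fold change was 3.68 ± 0.69 (SE; adjusted p = 9.66e-05 in edgeR). The gene entered both fits only through its oocyte level, with no CC or MGC library above 1 CPM, and filterByExpr dropped it here as well. A sign permutation test of the paired difference in log2(CPM + 1) gave 0.13 with p = 0.00108. Without S2 the pooled ratio was 26.7 (6.96 to 228) and the log2 fold change of the unpaired edgeR fit was 3.70 (adjusted p = 5.96e-07). Both levels are far below 1 CPM, and the cell type and the library protocol cannot be told apart.

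Other oocyte transcripts were counted in the same CC pools. Of 2396 genes with a mean oocyte CPM of at least 100, 40 had no more than 2 counts in any MGC library, and 39 of these were genes other than ENSBTAG00000040202. In the 12 CC pools where the gene had counts, 18 to 31 of the 39 also had counts, and their summed CC level was 0.0125% to 0.103% of their summed level in the oocyte (median 0.0233%). In the 14 pools where the gene was at 0, 7 to 30 of the 39 had counts, at 0.00225% to 0.0410% (median 0.00975%). By CPM, the CC pool of S2 was the highest of the 26 for the gene (0.924 CPM) and for the sum of the 39 genes (23.7 CPM), while as a percentage of the oocyte level L7 was highest for the gene (0.235%). The part of oocyte RNA in the CC counts was not tested.

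In oocytes each of the same 39 genes changed less in each stage comparison than ENSBTAG00000040202 did in that comparison. Their summed level had medians of 30434, 28014 and 28039 CPM in small, medium and large follicles. Their median log2 fold change was -0.13 from small to medium, against 0.05 over all 14936 genes tested. From small to large it was -0.06, against 0.04 over all genes, and the 39 values ranged from -0.86 to 0.93. None of the 39 passed the call in either comparison or from medium to large, where their median was 0.05 and that of all genes 0.0038. The set was picked by its levels in these libraries, and ENSBTAG00000040202 by its fall in these oocytes. A larger change of this gene was thus favoured in advance, and these values are a description.

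The genes with the most similar pattern were sought by Pearson's r of log2(CPM + 1) over the 27 oocytes, among 8462 other genes with a mean CPM of at least 10. The highest r was 0.68, for ENSBTAG00000008024, and the next 0.67, for ENSBTAG00000012739. In all, 21 genes had an r of at least 0.6 and 63 an r of -0.6 or lower. The 27 oocytes share stages, prefixes and 1 library protocol, and these values have no p.

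ENSBTAG00000008024 was at 647 ± 109 CPM (SD, n = 9) in small, 468 ± 71.3 (n = 8) in medium and 409 ± 53.8 (n = 10) in large oocytes, with a 2.62-fold range over all oocytes. Its r was 0.33 after each stage's mean was removed and 0.68 without prefix 620. ENSBTAG00000012739 was at 607 ± 171, 426 ± 28.1 and 459 ± 107 CPM, and its r was 0.56 with stage means removed and 0.32 without prefix 620. The likeness of the first gene was thus lower once stages were centred, and that of the other was lower once the 3 oocytes of prefix 620 were left out. Both also had counts in CCs, at mean levels of 90.2 and 326 CPM, whereas ENSBTAG00000040202 was below 1 CPM in every CC pool.

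The most opposite patterns were those of ENSBTAG00000014316 (r = -0.74) and ENSBTAG00000008762 (r = -0.73). ENSBTAG00000014316 was at 120 ± 53.5 CPM in small, 191 ± 58.3 in medium and 229 ± 51.2 in large oocytes (SD, n = 9, 8 and 10). ENSBTAG00000008762 was at 123 ± 55.4, 189 ± 62.1 and 210 ± 75.8 CPM. With stage means removed, r was -0.54 and -0.56, and without prefix 620 it was -0.60 and -0.44.

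**Figure D5:**
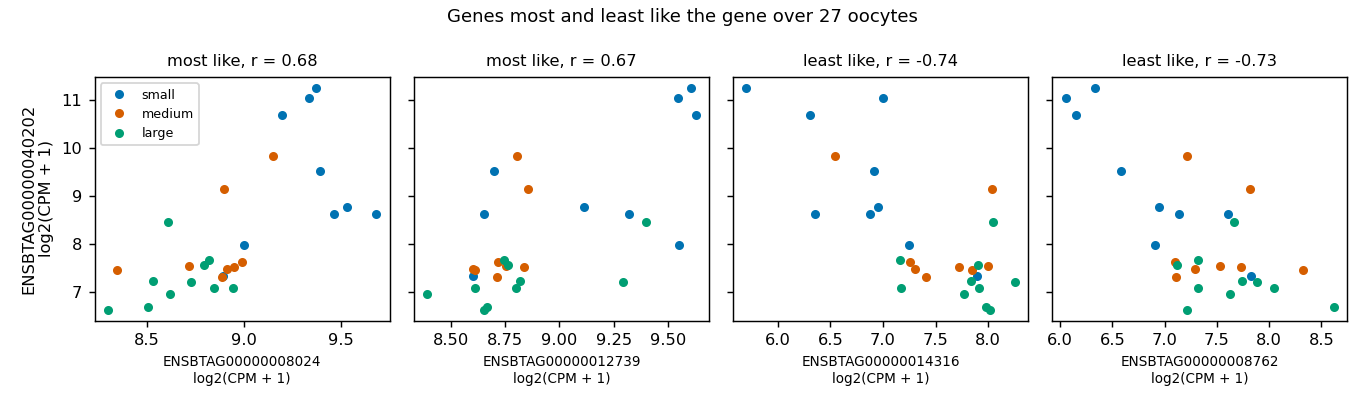
Log2(CPM + 1) of ENSBTAG00000040202 against that of the genes most like it (both left panels) and least like it (both right panels) over the 27 oocytes, coloured by stage. The r values are 0.68, 0.67, -0.74 and -0.73, and the 3 highest points are the oocytes of prefix 620.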

How the data were processed

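The authors deposited 1 table of raw read counts for 27270 Ensembl genes in 90 libraries, not normalized. The paper's methods name STAR and featureCounts over exons with unique alignments, and the submitters' processing notes name HISAT2 2.2.1, featureCounts and Subread, with build ARS-UCD1.2. Which aligner made the table is not given in the sources used here. All columns matched a sample. No 2 libraries were identical.

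CPM was the count divided by the column total. Stages followed the labels, and removals and the healthy class followed the paper. The filter kept 15134 genes, each above 1 CPM in 15 or more retained libraries of MGCs, of CCs or of oocytes, and edgeR 4.0.16 in R 4.3.3 (TMM, glmQLFit, glmQLFTest, Benjamini-Hochberg) was fitted per cell type over 3 stages. The SE is the log2 fold change divided by the square root of F. DESeq2 1.42.0, other scalings, filters, follicle sets, a prefix covariate and leave-one-out fits were alternatives. CCs and MGCs were compared over 26 follicles, and their pairing comes from the follicle number in the labels. Permutation tests, exact or with 100000 resamples, were made in Python 3.11.15 with scipy 1.17.1. Fits were tested on simulated data. The gene and the lists were chosen with earlier results of these data known. Named genes were the 2 most and 2 least like the gene by r, instead of 5 most like, since identifiers could not be paired with symbols. For the same reason, oocyte and granulosa marker lists were not checked here. Gene lengths were unknown, so where CPM of different genes is set side by side it is not adjusted for length. Counting intervals cover counting error only, since amplified reads carry no molecular identifiers.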

Additional observations from a re-analysis of the deposited data

Results flagged for a closer look

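Among large follicles, the oocyte of L3 stood far from the others at 352 CPM, where the next highest was at 202 CPM. Among CCs, S2 stood apart in small follicles at 0.924 CPM and L7 in large follicles at 0.231 CPM. Among MGCs, S8 was the only sample with counts, at 0.0646 CPM. These are 4 flags over 7 groups of libraries in which values varied. Chance flags about 1 in 20 groups if values are normally distributed, and the CC and MGC groups hold many zeros. The gaps were judged on CPM and not on log2(CPM + 1), where high values such as that of L3 stand out less.

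The removed follicles, which entered only the fits with all 30 follicles and the tally of even counts, also held counts of the gene in oocytes and CCs. The oocyte of the removed small follicle was at 196 CPM, near S7, which shares its prefix 707. Of the removed medium follicles, one oocyte (7 mm, prefix 718) was at 202 CPM, close to the 196 CPM of M7 with the same prefix, although only 6770 genes had counts. The other (7.1 mm, prefix 710) had 4 counts, or 0.225 CPM, while M6 of the same prefix was at 182 CPM. In that library 721 of 4892 genes that reach 10 CPM in each retained oocyte were below 1 CPM, and in the library with 202 CPM the number was 960. The CC pools of these follicles were at 0.295 CPM for the small follicle and at 0.297 and 0.255 CPM for the medium ones of 7 and 7.1 mm, above the limit that 0 counts allow. In the 7.1 mm follicle these CCs had 10 counts and the oocyte 4.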

How the results depend on the processing

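The log2 fold change from small to medium oocytes, whose direction the choice of the gene favours, was negative in all 11 alternatives other than leave-one-out, between -3.61 and -0.12, and so was that from small to large, between -3.70 and -1.37. They moved by more than the within-stage SD with healthy follicles only (-3.61 and -3.70), with the retained follicles outside the healthy set (-0.12 and -1.40) and without prefix 620 (-0.45 and -1.39, chosen after the values were seen), and with the prefix as a covariate from small to large (-1.37). Leaving out each follicle in turn gave -2.07 to -1.32 and -2.78 to -2.26. From medium to large the range was -1.15 to -0.50, the last without M1, and the adjusted p stayed at 0.735 or above in these fits and the step passed under none of the 11 other alternatives. In CCs, the step from small to medium ran from -1.38 to 0.031 when follicles were left out, with its sign turned without S2, and was 0.072 in healthy follicles. The step from medium to large ran from -2.21 to -0.85, and was 0.12 outside the healthy set. With the follicle as a replicate block, CCs stayed above MGCs (3.68, adjusted p = 9.66e-05 in edgeR, against 4.24 without the block), as in DESeq2 (4.05, adjusted p = 0.00100) and when follicles were left out (3.70 to 4.89). The value of 4.89 came without S8, the only MGC sample with counts, so its size is set by the fit. DESeq2's scaling moved the median of all genes between CCs and MGCs from -0.02 to -0.17. Of the 5 genes most like the gene, 1 was kept by Spearman's rho, 0 with stage means removed and 5 with a pseudocount of 0.1. The cause of these shifts was not tested.

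Leave-one-out fits of MGCs were not run, since 1 library holds all counts, and edgeR's filterByExpr gave no value in CCs or MGCs because it dropped the gene. In oocytes the number of genes called from small to medium was 11 in edgeR, 37 in DESeq2, 38 without prefix 620, 1 in healthy follicles and 0 with no filter, with all 30 follicles, outside the healthy set, with the prefix as a covariate or with only 2 stages. From small to large it was 225, 293, 268, 1 and, in these last settings in turn, 249, 0, 0, 0 and 106. CC and MGC levels rest on at most 32 counts per library.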
